A study of Mus musculus with 10 samples.

Results

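The potassium channel genes described here were the 96 protein coding genes, of 54446 gene rows measured, whose symbol in the GENCODE M21 mouse annotation (GRCm38) starts with Kcn, or is Abcc8 or Abcc9. Membership was decided by symbol alone and not by any measured value. Messenger RNA had been sequenced from smooth muscle cells that were isolated from mouse aorta by collagenase and grown to passage 2, with 5 wild type libraries (WT) and 5 of the Kit genotype W/Wv (labelled WWv). The alleles are germ line mutations of Kit, which encodes the stem cell factor receptor c-Kit, and every cell of a WWv mouse carries them, so that the change was not restricted to muscle. The labels name 5 mice of each genotype but do not tie each library to 1 mouse, and neither age nor sex is stated in the sources used here. The p-values therefore measure the spread between these libraries. A minimum of 10 counts in at least 5 libraries was met by 37 of the 96 genes. The filter of the test was passed by 35 of them, and the other two were Kcna1 and Kcns3.

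Potassium channels let potassium leave the cell and hold the membrane of vascular muscle at a negative potential, which keeps voltage-gated calcium channels closed and the vessel relaxed. Voltage-gated (Kv) channels and large-conductance calcium-activated (BK) channels open upon depolarization and act as a brake on it. Inward rectifiers, ATP-sensitive channels and tandem pore domain (K2P) channels set the resting potential. By symbol the 96 genes fell into 30 pore-forming Kv subunits, 10 electrically silent Kv subunits, 13 Kv auxiliary subunits and regulators, 12 subunits of calcium- or sodium-activated channels, 17 inward rectifiers and sulfonylurea receptors, and 14 K2P channels.

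The results turned on 2 channels whose pore and partner subunits are separate genes, the BK channel (Kcnma1 and Kcnmb1) and the vascular ATP-sensitive channel (Kcnj8 and Abcc9). The 250 bases before their RefSeq starts (GRCm38.p6) are shown because one pair moved in opposite directions and the other together. The windows are chr14:24004206-24004455 on the minus strand for Kcnma1, chr11:33962763-33963012 on the plus strand for Kcnmb1, chr6:142571615-142571864 on the minus strand for Kcnj8, and chr6:142702275-142702524 on the minus strand for Abcc9. Capitals mark matches, on either strand, to GGGCGG (the GC box) or TGACG (the core of the CREB site). TATAAA and the CArG box, the SRF site of smooth muscle genes, were also searched.
Kcnma1: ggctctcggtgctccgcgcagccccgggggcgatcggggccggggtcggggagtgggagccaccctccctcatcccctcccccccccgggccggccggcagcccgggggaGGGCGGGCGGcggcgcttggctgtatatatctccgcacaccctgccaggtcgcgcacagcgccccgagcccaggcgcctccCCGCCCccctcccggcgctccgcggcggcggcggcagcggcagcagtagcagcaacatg
Kcnmb1: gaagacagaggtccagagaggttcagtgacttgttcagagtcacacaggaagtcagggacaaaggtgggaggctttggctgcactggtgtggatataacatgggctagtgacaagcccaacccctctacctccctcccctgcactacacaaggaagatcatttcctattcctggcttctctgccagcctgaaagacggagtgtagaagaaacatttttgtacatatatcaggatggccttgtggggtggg
Kcnj8: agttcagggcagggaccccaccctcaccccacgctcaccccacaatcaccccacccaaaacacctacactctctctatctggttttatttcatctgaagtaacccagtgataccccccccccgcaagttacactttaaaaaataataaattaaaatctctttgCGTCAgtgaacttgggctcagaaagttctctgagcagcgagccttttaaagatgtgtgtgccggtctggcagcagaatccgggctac
Abcc9: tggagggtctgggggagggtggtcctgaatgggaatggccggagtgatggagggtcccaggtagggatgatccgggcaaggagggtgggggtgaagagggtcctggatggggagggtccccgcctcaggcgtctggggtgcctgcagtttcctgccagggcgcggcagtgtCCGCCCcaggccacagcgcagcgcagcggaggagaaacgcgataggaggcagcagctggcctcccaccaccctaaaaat

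In the Kcnma1 window, which precedes 1 of several annotated starts of the gene and had 79.2% G and C, GGGCGG occurred 3 times, at 140, 136 and 59 bases before the start, with the first pair overlapping. The Abcc9 window (66.8% G and C) held 1 GGGCGG, 79 bases before the start. The Kcnj8 window (49.2% G and C) held 1 TGACG, 87 bases before the start, and the Kcnmb1 window (50.8% G and C) held none of the 4 motifs. Of all 32851 RefSeq windows of this length, 32.7% held GGGCGG, 17.8% TGACG, 12.4% TATAAA and 1.47% a CArG box. Among the 43 windows of the 29 tested channel genes matched by symbol, these were in 18 (41.9%), 7 (16.3%), 0 and 0. A match is a string of letters and does not show that a factor binds there.

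Totals ranged from 42040255 to 53863661 counts per library, so that a library-scaled level of 1 CPM stood for 41.6 to 52.5 counts. Kit itself stood at 3.19 to 4.92 CPM in WT and 0.929 to 3.01 CPM in WWv (log2 fold change −1.04 ± 0.25 SE, edgeR adjusted p = 0.0122). WT 2 stood apart from the other libraries: on the first principal component of all tested genes it lay at 20.2, within the WWv range of 11.5 to 33.4, while the other WT libraries lay between −51.1 and −29.1. The smooth muscle markers were expressed in every library, with a summed level of 10086 to 13294 CPM in WT and 16934 to 20426 CPM in WWv, and 7 of the 10 passed as higher in WWv. Endothelial markers summed to 349 CPM in WT 2, 61.3 to 106 CPM in the other WT libraries and 95.9 to 220 CPM in WWv (0 of 8 called, 4 called higher without WT 2). Fibroblast markers summed to 5916, 9305 to 12133 and 7272 to 9585 CPM in the same order, and 4 of 8 were lower in WWv (Lum, Dcn, Dpt and Pdgfra; 5 lower and 1 higher without WT 2). Most of that sum was Col1a1, which was not called (adjusted p = 0.744), and the other 7 summed to 438 CPM in WT 2, 504 to 637 CPM in the other WT libraries and 261 to 420 CPM in WWv. The summed pericyte markers were 800, 1069 to 1353 and 1249 to 1534 CPM, with 2 of 6 tested higher (2 higher and 3 lower without WT 2), a median log2 fold change of −0.25 and Higd1b at 0 in every library. Cell cycle markers summed to 776, 468 to 524 and 662 to 774 CPM, with 7 of 10 higher (10 without WT 2). Macrophage markers (20.5 to 41.1 CPM in WT, 20.7 to 25.6 in WWv, 0 of 5 tested called, 2 lower without WT 2), neuronal and glial markers (55.2 to 115 and 45.0 to 60.0 CPM, 1 of 5 lower), striated muscle markers (1.75 to 2.90 and 4.52 to 6.95 CPM, 1 of 2 higher and 1 lower) and mast cell markers (at most 0.609 CPM, none tested, Fcer1a at 0) took smaller sums. Genes that report sex chromosomes summed to 148 to 176 CPM in WT and 154 to 170 CPM in WWv, with 1 of 4 tested higher and 2 lower. Xist reached at most 0.195 CPM in WT and 0.0955 CPM in WWv. The Y-linked genes were expressed in every library, with lowest values of 64.4 (Ddx3y), 15.4 (Uty), 18.3 (Kdm5d) and 35.7 CPM (Eif2s3y). Over all tested genes 12.8% were called higher and 15.4% lower in WWv, and without WT 2 46.2% were called in either direction. The endothelial markers did not move together without WT 2. Pecam1, Cdh5, Tie1 and Emcn were called higher. Egfl7 (log2 fold change 0.36), Vwf (−0.15), Tek (−0.20) and Kdr (−0.30) did not pass. The part of the marker differences in the channel results was not tested, and in bulk RNA fewer cells of a type cannot be told apart from less RNA per cell.

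The comparison of WWv with WT asked which channel transcripts differ in vascular muscle without normal c-Kit signalling. Of the 35 tested channel genes 8 fell and 3 rose in WWv. Those that fell included Kcnma1, Kcnj2, Kcnj8, Abcc9, Kcne4, Kcnt2 and Kcnd1, by 1.70-fold to 9.05-fold. Those that rose included Kcnmb1 (2.35-fold) and Kcnk5 (1.80-fold). The call rested on an edgeR quasi-likelihood adjusted p under 0.05 over all 15181 tested genes, of which 28.2% were called (12.8% higher, 15.4% lower). The channel genes' share of 31.4% (8.57% higher, 22.9% lower) was near that background, and nothing particular to them is read from the count. The median log2 fold change of the 35 genes was −0.261, against −0.0082 over all tested genes. The ranges of the groups did not overlap in 6 of the 35 (17.1%, against 15.9% of all tested genes). WWv was lower in 5 of these, among them Kcnma1, Kcnj2, Kcnt2 and Kcnd1 (7.84% of all tested genes), and higher in 1 (8.03%). Without WT 2, 21 of 37 tested channel genes were called (56.8%, against 46.2% of all genes tested then), 14 lower and 7 higher, with all 11 of the first set among them.

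**Figure D1:**
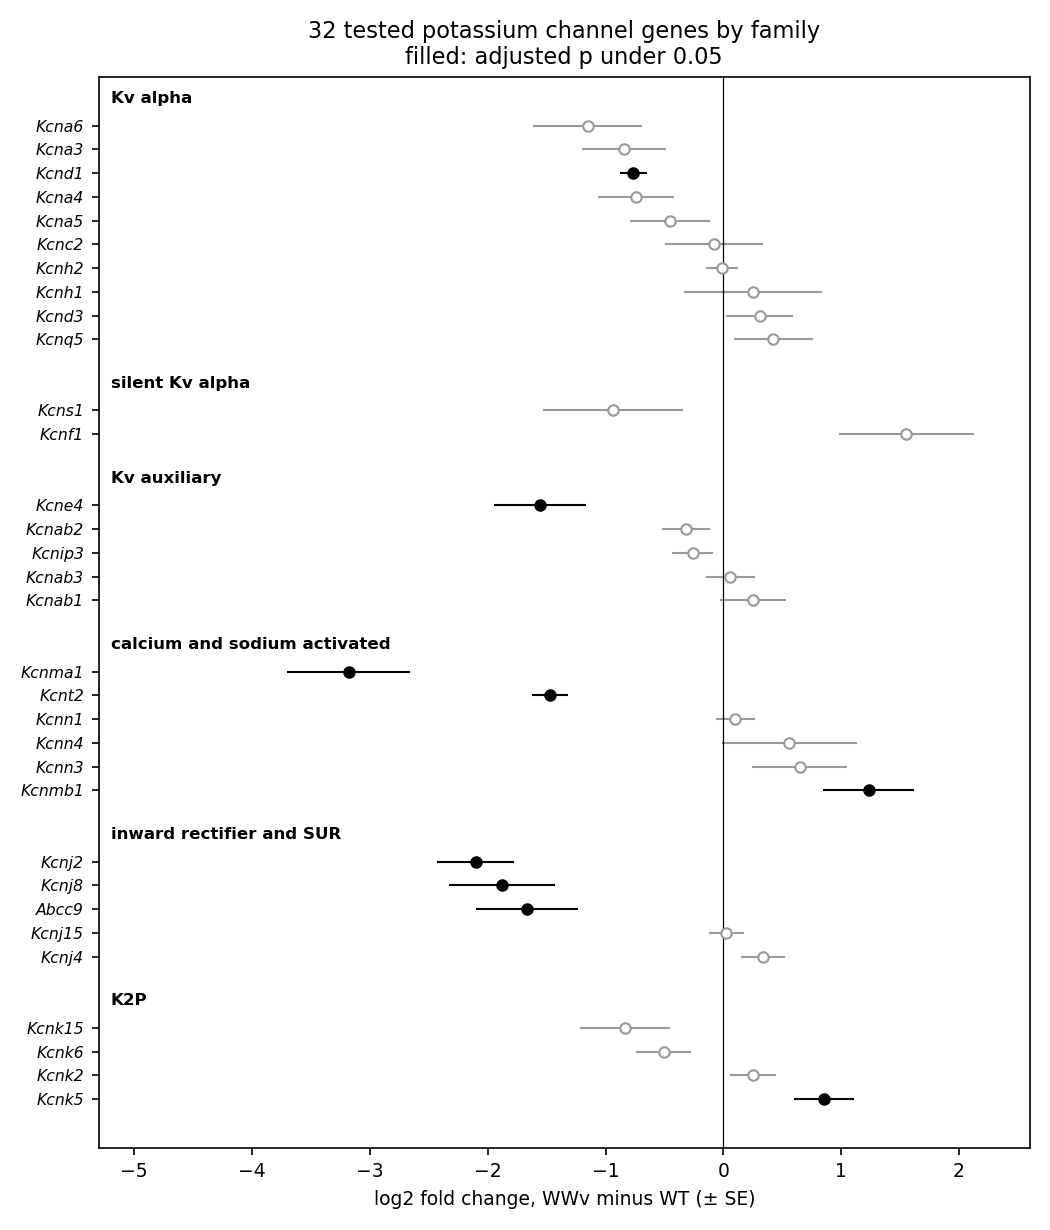
Log2 fold change of WWv against WT (x axis, ± SE) for 32 tested channel genes, grouped by family, with filled points for the 9 of them past the threshold. Kcnma1 lies farthest to the left, at −3.18, and Kcnmb1, which encodes its partner subunit, lies at 1.23.

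Kcnma1 encodes the pore of the BK channel, which calcium sparks open in arterial muscle (chromosome 14, 23289431 to 24014491). It stood at 2.40, 0.776, 3.98, 4.99 and 5.95 CPM in WT 1 to 5. The WWv libraries 1 to 5 held 0.202, 0.279, 0.722, 0.431 and 0.363 CPM, which rest on 9, 12, 30, 20 and 19 counts. The groups did not overlap, although WWv 3 came close to WT 2, the lowest WT library. The fall was 9.05-fold (log2 fold change −3.18 ± 0.52 SE, adjusted p = 0.00205), with the estimate at −3.44 without WT 2. Its exons share 1016 of 16976 bases with an antisense gene, 4930519K11Rik, whose own row reached at most 0.0626 CPM.

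Kcnmb1 encodes the beta1 subunit, which raises the calcium sensitivity of the BK channel in smooth muscle (chromosome 11, 33963013 to 33973641). It moved the other way from the pore gene. WT 1 to 5 held 0.835, 2.16, 2.54, 2.02 and 5.36 CPM, and WWv 1 to 5 held 4.50, 6.92, 7.89, 6.80 and 4.14 CPM. WT 5 lay above WWv 1 and WWv 5, and the other WT libraries lay below all of WWv. The rise was 2.35-fold (1.23 ± 0.39, adjusted p = 0.0363, 5 of 5 WWv libraries above the WT mean). The call was lost on leaving out WT 3 (1.23, adjusted p = 0.0747), WT 4 (1.16, 0.0806), WWv 2 (1.18, 0.0768), WWv 3 (1.12, 0.0853) or WWv 4 (1.18, 0.0764).

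Per kilobase of exon, Kcnmb1 exceeded Kcnma1 in every library, by a ratio of 1.41, 11.3, 2.58, 1.64 and 3.65 in WT 1 to 5 and of 90, 101, 44.3, 64.0 and 46.3 in WWv 1 to 5. WT 2 had the highest ratio of its group and lay below the lowest WWv ratio. With the longest coding transcript of each gene as its length the ratios were 1.00 to 8.02 in WT and 31.6 to 71.7 in WWv. The genes of the other beta subunits, Kcnmb2, Kcnmb3 and Kcnmb4, held 6, 3 and 45 counts over all 10 libraries, and those of the gamma subunits Lrrc26 and Lrrc52 held none.

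**Figure D2:**
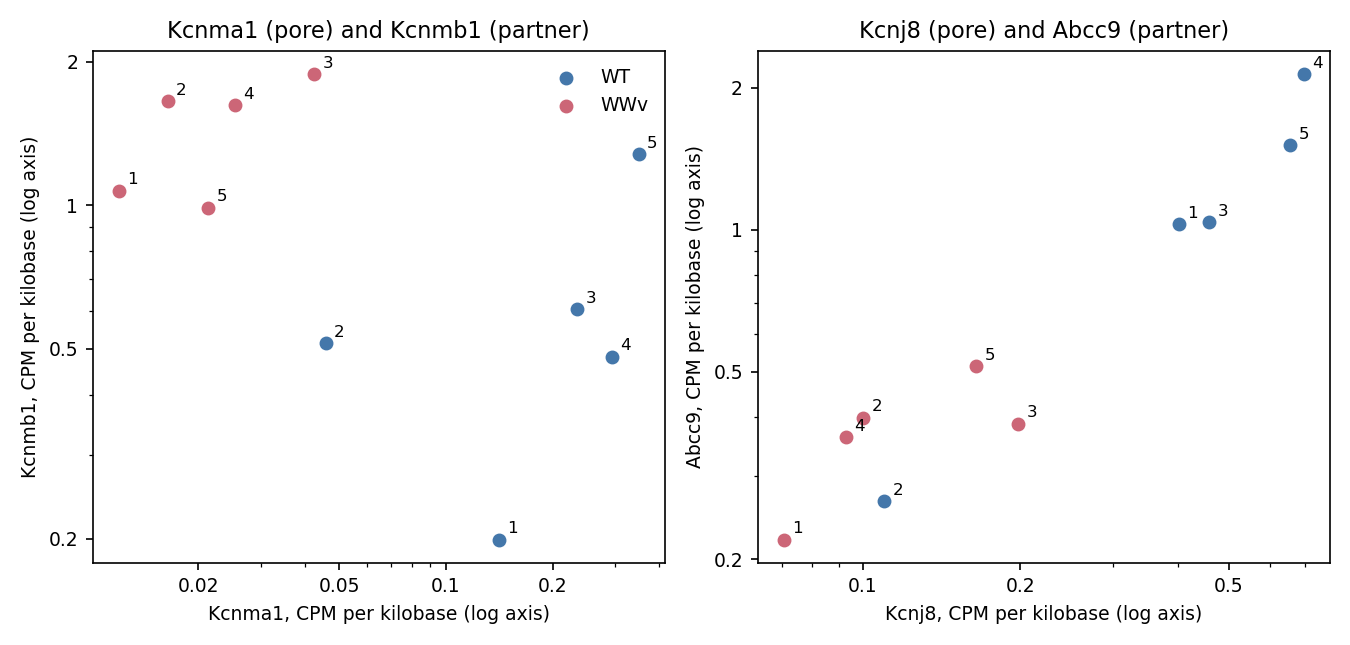
Level per kilobase of exon of the pore gene (x axis) and of its partner (y axis), both on log axes, in each library, numbered by replicate. For Kcnma1 and Kcnmb1 the WWv libraries lie at upper left, with ratios of 44.3 to 101 against 1.41 to 11.3 in WT, whereas for Kcnj8 and Abcc9 the groups lie along one diagonal, with WT 2 among the WWv libraries.

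Kcnt2 encodes a sodium-activated channel (Slick) that opens with intracellular sodium and chloride (chromosome 1, 140246158 to 140612067). It stood at 6.53, 3.95, 6.30, 7.05 and 6.09 CPM in WT 1 to 5 and at 2.20, 2.07, 1.90, 2.2 and 2.42 CPM in WWv 1 to 5. The WWv libraries were tightly grouped, and WT 2 was the lowest WT library without reaching them. The fall of 2.77-fold (−1.47 ± 0.15, adjusted p = 0.000342) had the smallest p among the channel genes. Kcnt1, its paralog, held 3 counts in all.

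The small- and intermediate-conductance calcium-activated channels are best known in the vessel wall from endothelium, where Kcnn3 and Kcnn4 drive hyperpolarization that spreads to muscle. Kcnn4 stood at 0.376, 2.37, 0.468, 0.209 and 0.376 CPM in WT 1 to 5 and at 0.855, 1.09, 1.39, 1.42 and 0.821 CPM in WWv 1 to 5. WT 2 was thus the highest of all libraries and the other WT libraries the lowest. Kcnn4 did not pass with all libraries (0.56 ± 0.57, adjusted p = 0.487) and passed without WT 2 (1.64 ± 0.28, adjusted p = 0.000819). Kcnn3 stood at 0.539 CPM in WT 2, 0.175 to 0.259 CPM in the other WT libraries and 0.215 to 0.577 CPM in WWv (0.65 ± 0.40, adjusted p = 0.245, and 1.04 ± 0.36, adjusted p = 0.0361 without WT 2). WT 2 also held the highest sum of endothelial markers, and the part of that sum in these values was not tested. Kcnn1 did not pass (2.03 to 3.67 CPM in WT and 2.45 to 3.73 CPM in WWv, adjusted p = 0.67), and Kcnn2 held 8 counts in all.

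Among the inward rectifiers and sulfonylurea receptors 3 of 5 tested genes fell and 0 rose. Over all tested genes 15.4% fell and 12.8% rose, and with 5 genes nothing is read from the count. Kcnj8 encodes Kir6.1, the pore of the vascular ATP-sensitive channel (chromosome 6, 142564837 to 142571614), and Abcc9 encodes its sulfonylurea receptor SUR2. Both are also used as markers of pericytes. The genes are neighbours on the minus strand, with 16247 bases between Kcnj8 and the end of Abcc9 (142587862 to 142702315). Kcnj8 stood at 1.02, 0.280, 1.17, 1.77 and 1.67 CPM in WT 1 to 5 and at 0.180, 0.255, 0.505, 0.237 and 0.420 CPM in WWv 1 to 5. Abcc9 stood at 8.60, 2.22, 8.70, 17.9 and 12.7 CPM in WT 1 to 5 and at 1.84, 3.34, 3.25, 3.04 and 4.3 CPM in WWv 1 to 5. For both genes WT 4 and WT 5 were the highest libraries, WT 2 lay within the WWv range, and the other WT libraries lay above all of WWv.

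Kcnj8 fell 3.68-fold (−1.88 ± 0.45, adjusted p = 0.0119) and Abcc9 3.17-fold (−1.66 ± 0.43, adjusted p = 0.0166), each with 5 of 5 WWv libraries below the WT mean. Per kilobase of exon the ratio of Abcc9 to Kcnj8 was 2.26 to 3.08 in WT and 1.96 to 3.98 in WWv, ranges that overlap. With limma-voom Abcc9 did not pass (−1.44, adjusted p = 0.0857). The paralogs that form the ATP-sensitive channel of pancreatic beta cells were near the detection limit, with 4 counts of Kcnj11 and 1 of Abcc8 over all libraries. The pericyte markers did not move together. Cspg4 (1.70) and Mcam (1.96) rose, while Notch3 (−0.65, adjusted p = 0.0504), Rgs5 (−0.83, adjusted p = 0.185) and Ndufa4l2 (−0.86, adjusted p = 0.204) did not pass with all libraries and passed as lower without WT 2 (adjusted p = 0.0112, 0.0209 and 0.00671), and Pdgfrb did not pass (0.15, adjusted p = 0.364). In WT 2 these markers also went different ways. Like Kcnj8 and Abcc9, Rgs5, Ndufa4l2, Notch3 and Pdgfrb were at their WT lows there (45.4, 7.44, 29.2 and 495 CPM). Their WT highs were 311, 80.5, 56.8 and 812 CPM. Cspg4 was at its WT high in WT 2 (154 CPM, WT low 38.7), and Mcam stood at 69.0 CPM within a WT range of 49.6 to 80.1 CPM. The 7 fibroblast markers other than Col1a1 had a lower sum in WT 2 and in WWv than in the other WT libraries, but they did not move together. Lum, Dcn, Dpt, Pi16 and Ly6a were at their WT lows in WT 2. Pdgfra stood there at its WT mean (284 CPM), and Cd34 at its WT high (69.0 CPM, WT low 6.18). The part of either list in the falls was not tested.

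Kcnj2 encodes Kir2.1, the strong inward rectifier by which external potassium dilates small arteries (chromosome 11, 111066164 to 111076821). The WT libraries 1 to 5 held 1.31, 1.08, 1.97, 1.07 and 1.39 CPM and the WWv libraries 1 to 5 held 0.517, 0.255, 0.361, 0.344 and 0.115 CPM, the last on 6 counts. The groups did not overlap, and WT 2 lay among the other WT libraries. The fall was 4.29-fold (−2.10 ± 0.33, adjusted p = 0.0016). Its relatives Kcnj12 and Kcnj14 held 34 and 70 counts in all.

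Kcnj15 encodes Kir4.2 and had the highest mean CPM of the channel genes in both groups. It was exceeded by Kcne4 in WT 4 and WT 5 and by Kcnab1 in WWv 1. It did not pass (43.0 ± 4.72 CPM in WT and 43.7 ± 11.3 CPM in WWv, SD, n = 5 each; log2 fold change 0.02 ± 0.15, edgeR adjusted p = 0.918), and WWv 3 at 63.4 CPM stood above the rest. Kcnj4, which encodes Kir2.3, did not pass either (0.33 ± 0.19, adjusted p = 0.203). Of the 12 inward rectifier and sulfonylurea receptor genes that were not tested, 3 (Kcnj5, Kcnj6 and Kcnj13) were at 0 in every library.

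**Figure D3:**
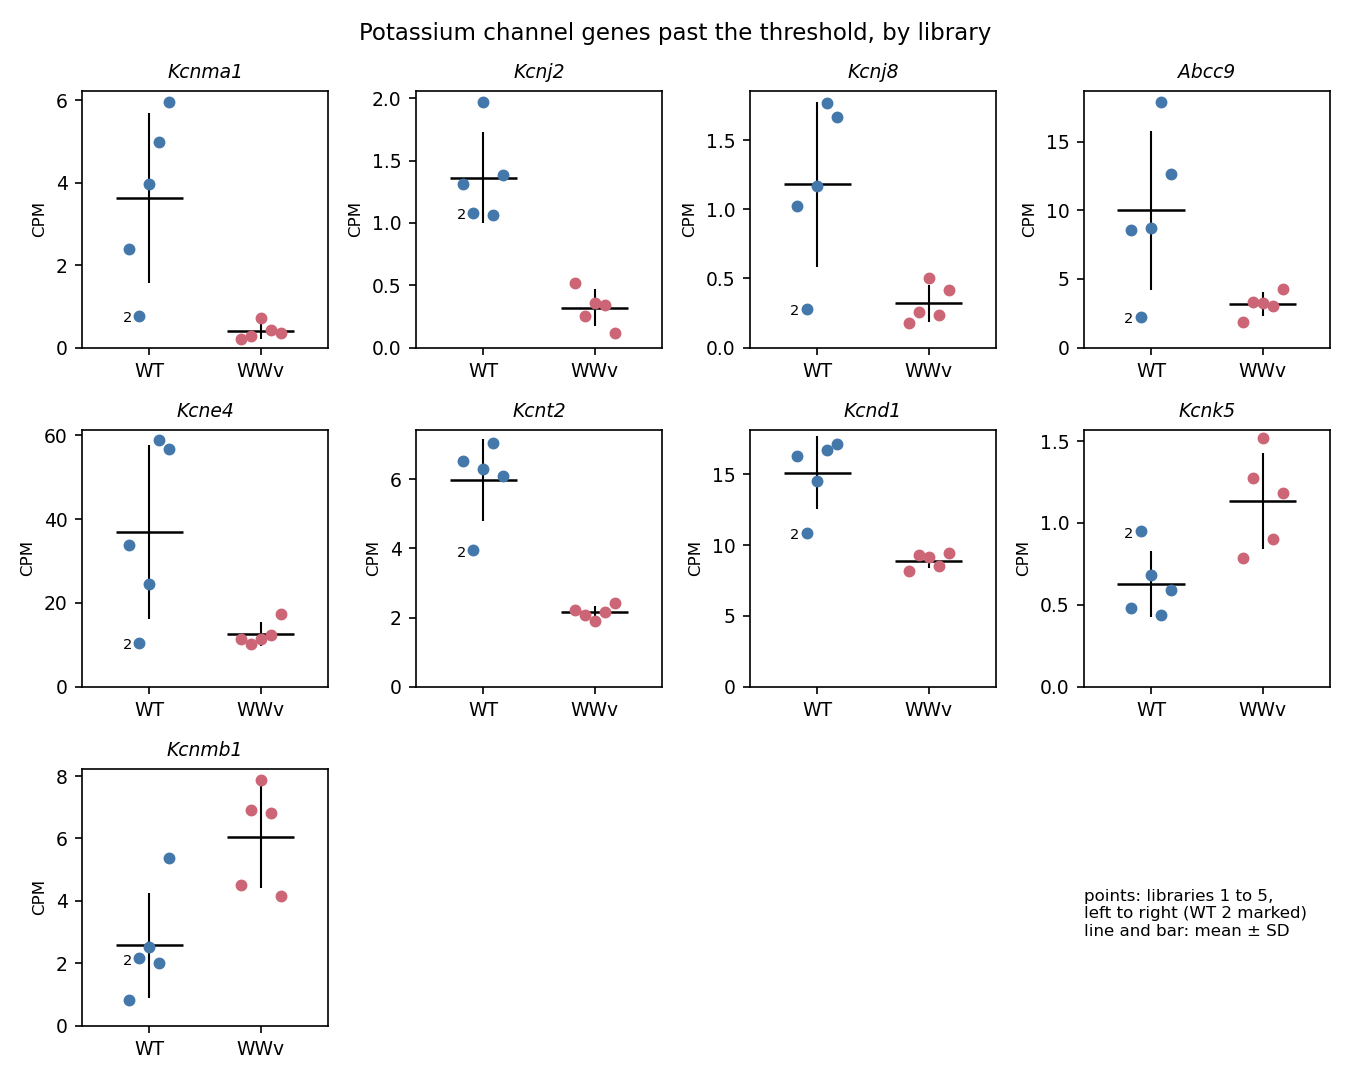
CPM (y axis, from 0) of 9 channel genes past the threshold in each library of WT and WWv, with the group mean ± SD and the second WT library marked 2. The marked point lies among the WWv points for Kcnj8, Abcc9 and Kcne4, and above all of them for Kcnma1, Kcnj2, Kcnt2 and Kcnd1.

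Among the pore-forming Kv genes 2 of 13 tested fell and 1 rose, beside 15.4% and 12.8% of all tested genes. Kcnd1 encodes Kv4.1, a channel of the transient A-type current, and had the highest level per length of the Kv pore genes (chromosome X, 7822289 to 7838280). It stood at 16.3, 10.9, 14.6, 16.8 and 17.1 CPM in WT 1 to 5 and at 8.14, 9.29, 9.17, 8.53 and 9.45 CPM in WWv 1 to 5. The WWv libraries lay close together below all of WT, and WT 2 was nearest to them. The fall was 1.70-fold (−0.76 ± 0.12, adjusted p = 0.00145).

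Kcnq5, which encodes a channel of the M-type current, did not pass (0.42 ± 0.33, adjusted p = 0.356), and Kcnq1 held 53 counts in all, 21 of them in WT 2.

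Kcna5, which encodes Kv1.5, was low in both groups (0.351 to 0.918 CPM in WT, 0.180 to 0.650 CPM in WWv; −0.45 ± 0.34, adjusted p = 0.332). Kcna6 (−1.15 ± 0.46, adjusted p = 0.0851), Kcna3 (−0.84 ± 0.36, adjusted p = 0.101) and Kcna4 (−0.74 ± 0.32, adjusted p = 0.108) had fitted values below 0, and Kcna6 passed without WT 2 (−1.34, adjusted p = 0.022). Kcna3 passed without WWv 1 (−1.16, adjusted p = 0.0336) and Kcna4 without WT 5 (−0.92, adjusted p = 0.0383). Kcnh2, the hERG channel of cardiac repolarization, stood at 2.97 ± 0.456 and 2.95 ± 0.362 CPM (n = 5 each; −0.01 ± 0.14, edgeR adjusted p = 0.963). Kcnd3, Kcnh1 and Kcnc2 did not pass (adjusted p = 0.437, 0.772 and 0.9). Kcna1 held 101 counts in all and did not pass the filter of the test, and Kcna2 held 13.

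Silent Kv subunits form no channel alone and modify other Kv channels. Of the 10 genes 2 were tested and 0 passed with all libraries. Kcnf1 stood at 0.417, 0.992, 0.312, 0.0762 and 0.118 CPM in WT 1 to 5 and at 1.55, 1.46, 0.698, 1.42 and 0.496 CPM in WWv 1 to 5. WT 2 lay among the WWv libraries, and the other WT libraries lay below all of them. Its fitted change was 1.55 ± 0.57 (adjusted p = 0.0647), and it passed without WT 2 (2.27 ± 0.50, adjusted p = 0.00368) and with DESeq2 (1.55, adjusted p = 0.0313), limma-voom (1.91, adjusted p = 0.0377) and the replicate block (1.77, adjusted p = 0.0335). Kcns1 stood at 0.0431 CPM in WT 2, 0.271 to 0.895 CPM in the other WT libraries and 0.0697 to 0.361 CPM in WWv (−0.94 ± 0.60, adjusted p = 0.258; −1.22 ± 0.43, adjusted p = 0.0389 without WT 2). Kcns3 held 83 counts in all.

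Of the 5 tested Kv auxiliary genes 1 was called, beside 28.2% of all tested genes. It was Kcne4, a single-span subunit that inhibits Kv1 channels (chromosome 1, 78816758 to 78820028). It stood at 33.8, 10.5, 24.5, 58.9 and 56.7 CPM in WT 1 to 5 and at 11.5, 10.1, 11.3, 12.4 and 17.4 CPM in WWv 1 to 5. WT varied widely, with WT 2 inside the WWv range and the other WT libraries above all of WWv. The fall was 2.94-fold (−1.55 ± 0.39, adjusted p = 0.014), with limma-voom at −1.32 (adjusted p = 0.0535). As for Abcc9, WT 4 and WT 5 were highest and WT 2 lowest among the WT libraries.

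Kcnab1 encodes the cytoplasmic beta1 subunit that speeds inactivation of Kv1 channels. It stood at 42.8 CPM in WT 2, 18.6 to 22.8 CPM in the other WT libraries and 17.1 to 45.2 CPM in WWv and did not pass (0.25 ± 0.28, adjusted p = 0.52; 0.54 ± 0.21, adjusted p = 0.0576 without WT 2). Kcnab2 (−0.32 ± 0.21, adjusted p = 0.267), Kcnab3 (0.06 ± 0.21, adjusted p = 0.86) and the calcium-binding Kv4 partner Kcnip3 (−0.26 ± 0.17, adjusted p = 0.274) did not pass. Kcne1, Kcne2 and Kcne3 held 4, 3 and 2 counts in all.

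Of the K2P channels, which carry background current, 4 of 14 were tested and 1 passed, beside 28.2% of all tested genes. Kcnk5 encodes the alkaline-sensitive TASK-2 (chromosome 14, 20140057 to 20181809). It stood at 0.480, 0.949, 0.682, 0.438 and 0.588 CPM in WT 1 to 5 and at 0.787, 1.28, 1.52, 0.904 and 1.18 CPM in WWv 1 to 5. WT 2 lay among the WWv libraries and the other WT libraries below them. The rise was 1.80-fold (0.85 ± 0.25, adjusted p = 0.0289) and lost its call without WT 1 (0.77, adjusted p = 0.069), WT 3 (0.89, 0.0532), WT 4 (0.74, 0.068), WT 5 (0.83, 0.061), WWv 2 (0.80, 0.0696), WWv 3 (0.73, 0.0777) or WWv 5 (0.83, 0.0588).

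Kcnk2, the mechanosensitive TREK-1, had the highest level of the K2P genes. It stood at 5.51, 11.1, 5.38, 5.47 and 5.38 CPM in WT 1 to 5 and at 7.53, 8.55, 7.70, 7.62 and 7.73 CPM in WWv 1 to 5. WT 2 was the highest of all libraries, and the other WT libraries lay below every WWv library. The fitted change was 0.25 ± 0.20 (adjusted p = 0.359) with all libraries and 0.53 ± 0.07 (adjusted p = 0.000179) without WT 2. Kcnk6, or TWIK-2 (−0.51 ± 0.23, adjusted p = 0.122), and Kcnk15, or TASK-5 (−0.83 ± 0.38, adjusted p = 0.123), passed without WT 2 (−0.65, adjusted p = 0.0145, and −1.07, adjusted p = 0.00596). Kcnk3, the acid-sensitive TASK-1 of pulmonary artery muscle, held 29 counts in all.

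**Figure D4:**
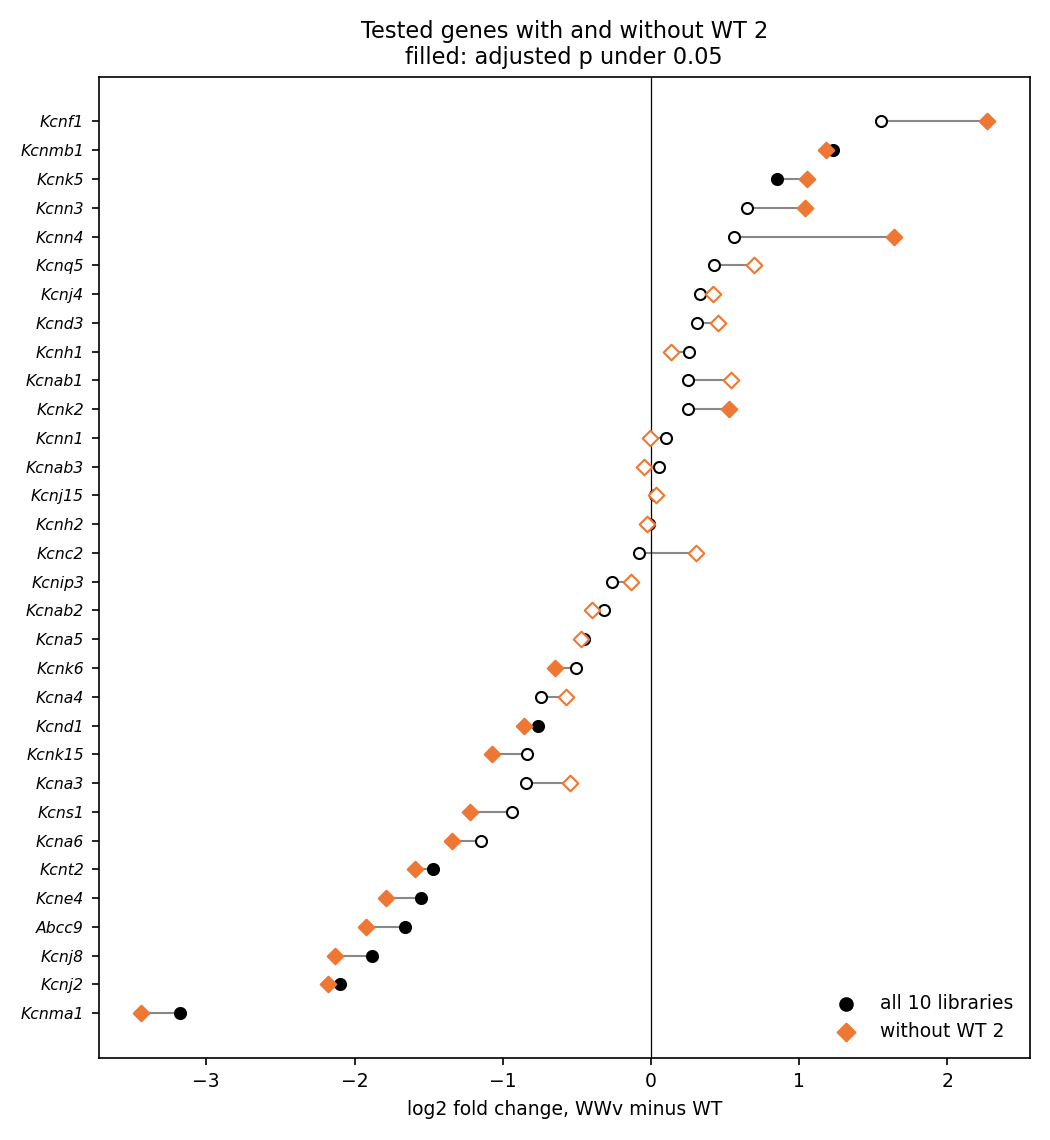
Log2 fold change (x axis) of 32 tested channel genes with all 10 libraries (circles) and without WT 2 (diamonds), filled where the adjusted p was under 0.05. Leaving out WT 2 moved Kcnn4 from 0.56 to 1.64 and Kcnf1 from 1.55 to 2.27 and kept the call of each of the 9 genes called with all libraries.

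WT 2 was the WT library nearest to WWv in 8 of the 11 called channel genes, against 63.8% of all called genes. Without it the groups did not overlap in 16 of the 35 genes (11 lower and 5 higher), among them 10 of the 11 called, the exception being Kcnmb1. Over all tested genes that share was 36.4%. The absolute fitted change was larger without WT 2 in 27 of the 35. The spread between libraries was larger in WT than in WWv for 28 of 35 genes (SD of log2 of CPM plus 0.1, median 0.494 in WT and 0.343 in WWv), and without WT 2 for 17 of 35 (median 0.346 in WT).

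Levels of different genes were compared per kilobase of the union of their annotated exons, as CPM per kilobase. In WT the order began with Kcne4 (13.9 ± 7.83 CPM per kilobase, SD, n = 5), Kcnj15 (6.81 ± 0.747), Kcnab1 (2.89 ± 1.18), Kcnd1 (2.86 ± 0.485), Kcnk2 (1.33 ± 0.515) and Abcc9 (1.2 ± 0.691). In WWv it began with Kcnj15 (6.93 ± 1.79), Kcne4 (4.72 ± 1.06), Kcnab1 (3.44 ± 1.18), Kcnd1 (1.69 ± 0.105), Kcnk2 (1.58 ± 0.0828) and Kcnmb1 (1.44 ± 0.391). Many neighbours in these orders overlapped within 1 SD of their means. In WT these were Kcne4 and Kcnj15, Kcnab1 and Kcnd1, and Kcnk2 and Abcc9. In WWv they were Kcnj15 and Kcne4, Kcne4 and Kcnab1, Kcnd1 and Kcnk2, and Kcnk2 and Kcnmb1. Kcnj15 exceeded Kcne4 in WT 2, unlike in the other WT libraries, and Kcne4 exceeded Kcnj15 in WWv 5, unlike in the other WWv libraries. Abcc9 went from rank 6 in WT to rank 14 in WWv, Kcnt2 from 7 to 17 and Kcnma1 from 25 to 35, the last of the tested genes. Kcnmb1 went from rank 9 to 6. Over the 10 libraries Kcnn1, Kcnh2 and Kcnt2 followed among the first 10 genes. With the longest coding transcript as length the same genes held the first 5 places, with Kcnab1 ahead of Kcnj15.

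**Figure D5:**
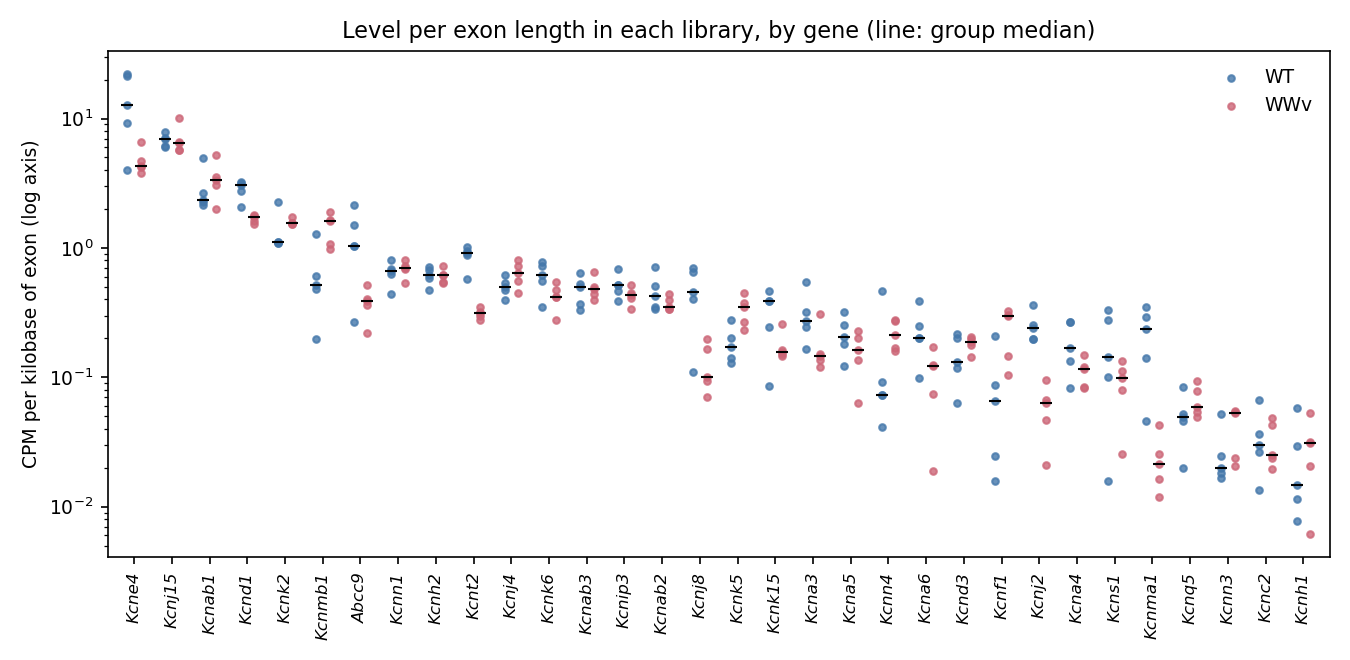
Level per kilobase of exon (y axis, log scale) of 32 tested channel genes in each library, ordered by the mean over 10 libraries, with a line at each group's median. Kcne4, Kcnj15, Kcnab1 and Kcnd1 lead in both groups, and Kcnma1 has the lowest of the WWv medians.

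Kcne4, Kcnj15, Kcnab1 and Kcnd1 together made up 62.1 to 70.8% of the summed per-length level of all 96 genes in WT and 57.3 to 64.1% in WWv. Kcne4 alone made up 13.7 to 46.4% in WT and 13.4 to 24.7% in WWv. The sum itself was 28.9 to 47.8 in WT and 26.3 to 31.7 CPM per kilobase in WWv, ranges that overlap. Calcium- and sodium-activated subunits took 5.54 to 7.5% in WT and 8.37 to 11.3% in WWv, but their summed level overlapped fully, at 2.12 to 3.43 and 2.2 to 3.42 CPM per kilobase. Kv auxiliary genes, Kcne4 among them, took 36.1 to 55.1% in WT and 29.7 to 41.5% in WWv, with levels of 10.4 to 26.3 and 8.25 to 10.9 CPM per kilobase. Kv pore genes took 12.4 to 16.4% and 13.4 to 15.7%, with levels of 4.74 to 6.35 and 3.66 to 4.25 CPM per kilobase.

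The 61 genes that were not tested included 9 at 0 in every library, among them Kcnj5, Kcnj6, Kcnj13, Kcnh8, Kcna10, Kcnv1, Kcns2 and Kcnk18. A count of 0 over all libraries allows a level of up to 3 counts, or 0.0064 CPM. A further 48 held 1 to 50 counts over the 10 libraries, and the remaining 4, Kcna1, Kcns3, Kcnj14 and Kcnq1, held 53 to 101.

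Genes that act with the channels were read from 3 other lists. Of 15 tested partners outside the symbol rule 3 rose and 1 fell (median log2 fold change 0.123; 4 and 4 without WT 2). They were Akap5, the scaffold that brings kinases and calcineurin to BK and calcium channels (1.30 ± 0.28, adjusted p = 0.00769), the caveolin gene Cav1 (0.68 ± 0.14, adjusted p = 0.00657), Nfatc3, a calcineurin-driven factor known to lower potassium channel transcripts in arterial muscle (0.26 ± 0.06, adjusted p = 0.00805), and the ubiquitin ligase gene Nedd4l (−0.21 ± 0.06, adjusted p = 0.0318). Of 13 tested genes of the sodium pump and of potassium-chloride cotransport 3 rose and 1 fell (median 0.0791; 5 and 4 without WT 2). Those were the pump subunit genes Atp1b1 (0.49 ± 0.14), Atp1b3 (0.42 ± 0.07) and Atp1b2 (−2.01 ± 0.52, adjusted p = 0.0157) and the pump regulator gene Fxyd5 (0.40 ± 0.12). Depolarizing and calcium-release channels rose in 7 and fell in 4 of 22 (median 0.211; 7 and 5 without WT 2). The L-type channel genes Cacna1d (−2.95 ± 0.56, adjusted p = 0.00427) and Cacna1c (−0.53 ± 0.14, adjusted p = 0.0151) fell, and the chloride channel gene Ano1 (0.94 ± 0.30, adjusted p = 0.0381) and the inositol trisphosphate receptor gene Itpr3 (0.64 ± 0.22, adjusted p = 0.0484) rose. These shares stood beside a background of 28.2% of all tested genes, or 46.2% without WT 2. Whether any gene of the 3 lists acted on the channel transcripts was not tested.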

How the data were processed

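Raw counts per gene were deposited by the authors as 1 table of 10 columns, matched to the samples by name. Per the submitters' processing notes, reads were handled with bcl2fastq 2.17, Trim Galore 0.4.3 and STAR 2.5.2a on mm10. How reads were counted, with which annotation and strand setting, is not given in the sources used here, so reads of overlapping or antisense genes cannot be told apart. Of the 54446 Ensembl IDs, 54409 matched GENCODE M21 without the version. The members and gene lists were chosen with earlier results of these data known.

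WWv was compared with WT with edgeR 4.0.16 in R 4.3.3 (TMM factors, filterByExpr with a minimum count of 10, quasi-likelihood test, Benjamini-Hochberg adjustment over all 15181 tested genes, called at an adjusted p under 0.05). The counts cover all members, but 4 of them are not reported here singly or drawn. The script was tested on simulated data. CPM were counts over library totals multiplied by the TMM factors. Called channel genes were named with all their values, the other tested ones with values or ranges, the 10 highest by level per length, and up to 4 called genes of each other list with the largest change. Alternatives were other scaling factors and filters, DESeq2 1.42.0, limma-voom (limma 3.58.1), robust dispersions, a replicate block, a threshold of 0.01 and leaving out libraries. Levels by the longest coding transcript were added after the data were seen.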

Additional observations from a re-analysis of the deposited data

Results flagged for a closer look

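Among the 66 sets of 5 CPM values (WT or WWv, for each of 32 tested channel genes and Kit), 8 held a library whose gap to its nearest neighbour took more than 0.71 of the range of the set. Chance gives about 1 such set in 20. WT 2 was that library for 4 genes. It held 11.1 CPM of Kcnk2 (others 5.38 to 5.51), 42.8 CPM of Kcnab1 (18.6 to 22.8), 2.37 CPM of Kcnn4 (0.209 to 0.468) and 0.539 CPM of Kcnn3 (0.175 to 0.259). Among the WWv libraries, WWv 5 held 0.516 CPM of Kcnk15 (others 0.292 to 0.323). WWv 3 held 63.4 CPM of Kcnj15 (36.1 to 41.7), WWv 2 held 8.55 CPM of Kcnk2 (7.53 to 7.73) and WWv 1 held 0.585 CPM of Kcna3 (0.229 to 0.289).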

How the results depend on the processing

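All 11 called channel genes kept their sign under the other scalings, tools and left-out libraries that tested them. The number called higher was 3, and 1 to 7 with 1 library left out, 7 without WT 2 and WWv 1, and 0 at an adjusted p under 0.01. The number called lower was 8, and 8 to 14 with 1 library left out, 14 without WT 2 and WWv 1, and 4 at an adjusted p under 0.01. Where 1 CPM in at least 5 libraries was required, 5 of 19 tested were called lower and 2 higher, and 3854 genes were called over all. Among the genes this filter removed from the test were Kcnma1 and Kcnj8, called lower, and Kcnk5, called higher. Over all tested genes 4274 were called, with 3013 to 7127 on leaving out 1 library, 7111 without WT 2 and WWv 1, and 1827 at an adjusted p under 0.01. The median log2 fold change of the channel genes lay between −0.294 and −0.113 with 1 library left out.

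DESeq2 called 4 higher and 9 lower, with 4990 genes called over all, and limma-voom 4 and 6, with 4165 called over all. With the replicate block 4 were higher and 8 lower, and 3636 genes were called over all. The deviations of same-numbered libraries from their group means had correlations of −0.092, −0.0129, 0.0368, −0.0712 and 0.308. Of the 5 WT libraries 1 correlated best with its own number. No label says whether the numbers pair the samples, and these correlations cannot decide it.

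Genes near no change turned sign, and the cause was not tested. With library size only, Kcnab3 was at −0.0264 and Kcnj15 at −0.0635. With limma-voom Kcnj15 was at −0.00478 and Kcnc2 at 0.0227. Kcnj15 was at −0.00111 with the replicate block, and without WT 2 and WWv 1 Kcnc2 was at 0.373 while Kcnj15, at 0.0882, kept its sign. With 1 library left out the ranges were −0.0632 to 0.19 for Kcnab3, −0.296 to 0.303 for Kcnc2, −0.0659 to 0.823 for Kcnh1, −0.0891 to 0.0527 for Kcnh2, −0.149 to 0.0846 for Kcnj15 and −0.00462 to 0.189 for Kcnn1. Depth limits the low genes most: Kcnma1, Kcnj8 and Kcnj2 rest on 6 to 30 counts in each WWv library.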

Other observations

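Of the 5 noncoding genes whose symbols start with Kcn, which the rule left out, 4 held 0 to 25 counts over all libraries. Kcnq1ot1, the imprinted antisense transcript of the Kcnq1 locus, stood at 5.03, 2.41, 6.69, 6.63 and 6.65 CPM in WT 1 to 5 and at 4.90, 3.97, 2.67, 5.62 and 4.14 CPM in WWv 1 to 5. The groups overlapped, and it did not pass (log2 fold change −0.36 ± 0.27 SE, edgeR adjusted p = 0.338).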
